A study of Homo sapiens with 24 samples.

Results

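The genes described here are 9 genes of NADPH supply and of the pentose phosphate pathway, PGLS, PGD, RPIA, RPE, TKT, TALDO1, IDH1, IDH2 and ME1. They were chosen by name, as the rows of the count table whose Entrez gene ID belongs to one of these symbols, and they are 9 of the 12009 gene IDs in the table. Their levels were measured in HepG2, an established human liver cancer line, in 24 libraries that fall into 6 groups of 4. According to the study's methods, cells received the lentiCRISPRv2 vector by lentivirus and were then selected with puromycin, and whether clones were picked is not stated there. The guide was a control against the AAVS1 locus (sgCtrl) or 1 of 2 guides against KEAP1 (sgKeap1-1, sgKeap1-2). Cells of each guide were transfected with a non-targeting siRNA pool (siNC) or with pooled siRNAs to TFEB and to TFE3 (sitfeb/sitfe3), and RNA was taken 72 h later. The design asks which of these genes change when KEAP1 is targeted, and whether that change differs once TFEB and TFE3 are knocked down. All 9 genes were in the table. Of these, 8 passed the filter on low counts and were tested, and ME1 did not.

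NADPH is the electron donor that cells use to recycle glutathione and thioredoxin and to build fatty acids and sterols. In the oxidative branch of the pentose phosphate pathway, glucose 6-phosphate is turned into ribulose 5-phosphate with release of NADPH and carbon dioxide. The non-oxidative branch then interconverts pentose phosphates with glycolytic intermediates. Outside that pathway, NADPH is made by the cytosolic and mitochondrial isocitrate dehydrogenases and by malic enzyme. KEAP1 holds the transcription factor NRF2 (gene NFE2L2) at low abundance by directing it to a ubiquitin ligase, and several genes of NADPH supply are known NRF2 targets. TFEB and TFE3 are related transcription factors known for driving lysosomal genes.

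Libraries held between 3527000 and 4600951 reads, with a median of 4181650.5, and reads carry no molecular identifier. Each replicate number carries its own prefix in the sample descriptions, written like a day and month and shared by all 6 groups, so same-numbered libraries form a set. What was done on those days, and whether replicates were separate cultures, is not stated, so p-values measure the spread between these samples, which may be technical. The libraries sgKeap1-1 replicate 1 under siNC and sgKeap1-2 replicate 1 under sitfeb/sitfe3 stood apart on the second principal component (11.7% of the variance). Both belong to the set of replicate 1, and calls that depend on them are given with and without them. KEAP1 RNA fell with sgKeap1-1 (log2 fold change -0.66 under siNC, limma-voom adjusted p = 0.000102), whereas sgKeap1-2 moved it by -0.14 (adjusted p = 0.448). Reads of a 3′ library do not show small edits elsewhere in a gene, so this level checks neither guide. TFE3 fell in all 3 guide backgrounds under sitfeb/sitfe3, by 1.57, 1.74 and 1.69 on the log2 scale with sgCtrl, sgKeap1-1 and sgKeap1-2. TFEB changed by -1.96 (adjusted p = 0.0857), -2.15 (0.013) and -1.67 (0.0418), so its call was missed with sgCtrl. Under siNC, TFE3 was itself called higher with sgKeap1-2 than with sgCtrl, and it was not called with sgKeap1-1. NFE2L2 RNA was called in no comparison.

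Targeting KEAP1 raised 3 of the 9 genes with both guides and under both siRNA conditions. These were PGD, the NADPH-producing dehydrogenase of the oxidative branch, and TKT and TALDO1, the transketolase and transaldolase that carry carbon between sugars in the non-oxidative branch. Under siNC, fold changes ranged from 1.69 for TKT with sgKeap1-2 to 2.81 for TALDO1 with the same guide. IDH2, the mitochondrial NADP-dependent isocitrate dehydrogenase, rose 1.33-fold with sgKeap1-2, and its 1.24-fold difference with sgKeap1-1 did not pass. The difference between the guides themselves, 0.10 on the log2 scale, was not called either. In contrast, PGLS, RPIA and RPE, which stand between PGD and the transketolase and transaldolase steps or before PGD, were called in none of these comparisons, and IDH1 was called once, as lower.

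With sgKeap1-1 under siNC, 3 of the 8 tested genes were called higher and 0 lower, at a limma-voom adjusted p under 0.05 over 11152 genes. Among all genes tested, 6.01% were called higher and 4.92% lower in that comparison. With sgKeap1-2 under siNC, 4 of 8 were higher and 0 lower, beside 7.58% and 7.14% of all genes. Under sitfeb/sitfe3, sgKeap1-1 gave 3 higher and 0 lower (all genes, 5.68% and 4.81%), and sgKeap1-2 gave 4 higher and 1 lower (all genes, 10.6% and 9.59%). The median log2 fold change of the 8 genes was 0.30, 0.37, 0.18 and 0.29 in these 4 comparisons, against -0.02, 0.00, 0.00 and 0.01 over all genes tested. Both guides are set against the same sgCtrl libraries, so their results are not independent. Without the 2 libraries that stood apart, the 4 comparisons gave 3, 5, 3 and 5 calls, the added one being a lower RPIA with sgKeap1-2 under siNC.

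**Figure D1:**
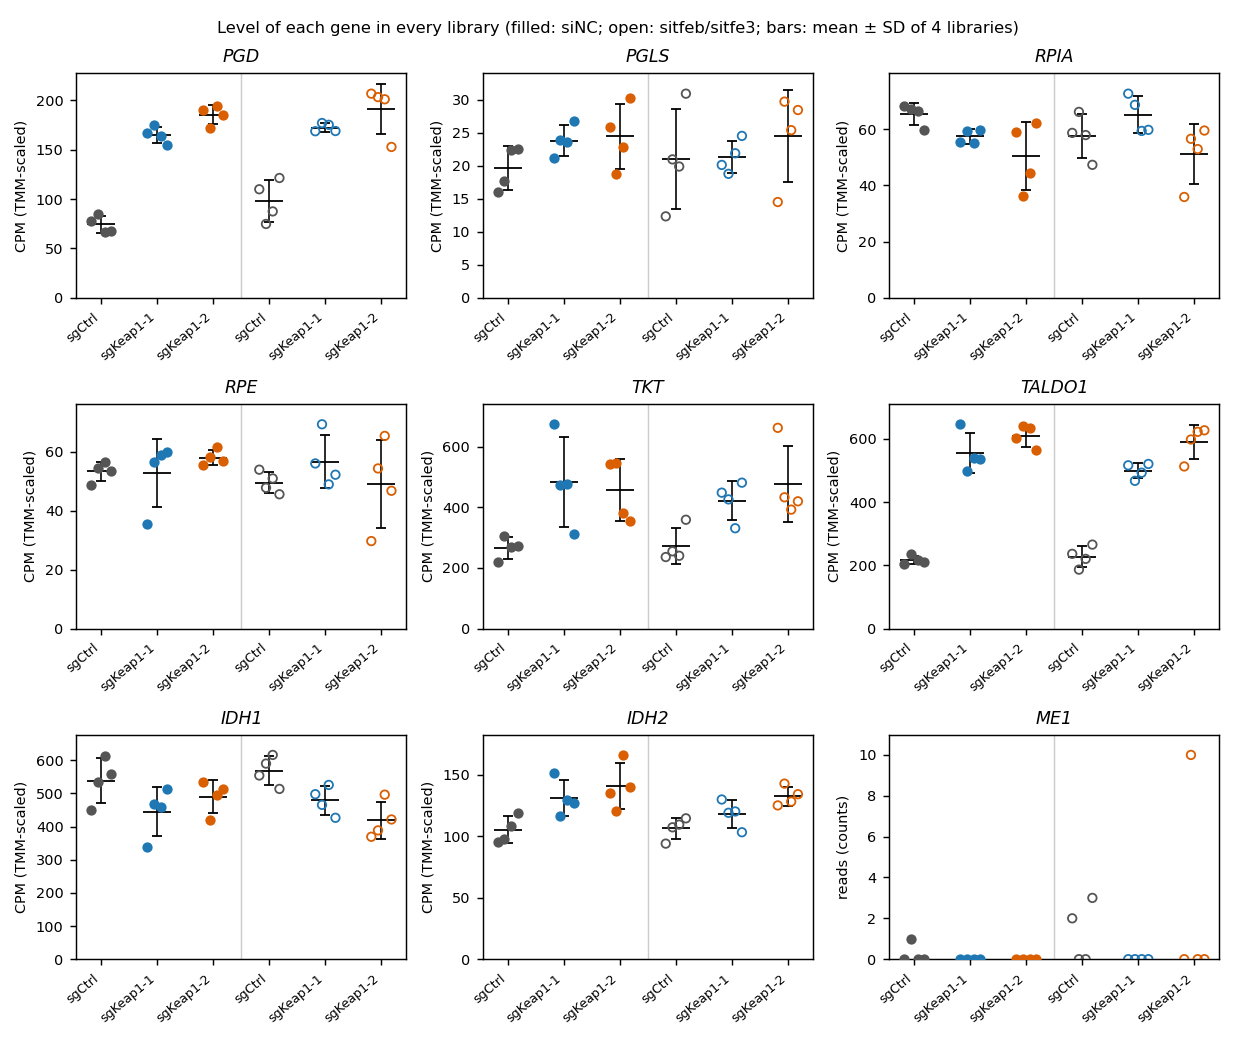
Level of each gene in every library, as read counts scaled to a common library size by TMM (CPM, vertical axis from 0), or as reads for ME1, by guide (horizontal axis), with siNC filled, sitfeb/sitfe3 open and black bars for the mean ± SD of 4 libraries. PGD and TALDO1 were higher in all 16 libraries with a KEAP1 guide than in all 8 sgCtrl libraries, while PGLS and RPE overlapped in every comparison and ME1 had 0 reads in 20 libraries.

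PGD encodes 6-phosphogluconate dehydrogenase, which yields NADPH and ribulose 5-phosphate. The gene (Entrez ID 5226) lies on chromosome 1 of GRCh37 from 10458649 to 10480568, on the forward strand. Its levels with sgCtrl under siNC were, in CPM (reads scaled to a common library size), 77.9, 85.2, 67.1 and 67.6 in replicates 1 to 4. With sgKeap1-1 under siNC they were 166, 175, 164 and 155 CPM, and with sgKeap1-2 they were 190, 172, 194 and 185 CPM. No library with a KEAP1 guide reached down to the control range, and the lowest of the sgKeap1-1 libraries was 1.82 times the highest control. The log2 fold change was 1.15 (adjusted p = 4.12e-07 at an SE of 0.13) with sgKeap1-1 and 1.32 (adjusted p = 1.91e-08 at an SE of 0.13) with sgKeap1-2. Under sitfeb/sitfe3, the sgCtrl libraries spread more widely, at 110, 74.8, 87.5 and 121 CPM. There the values were 169, 177, 175 and 169 CPM with sgKeap1-1 and 207, 203, 201 and 153 CPM with sgKeap1-2. These groups still did not overlap, with log2 fold changes of 0.84 (adjusted p = 2.67e-05 at an SE of 0.12) and 0.97 (adjusted p = 1.54e-06 at an SE of 0.12). PGD was called in all 32 alternative fits of each of the 4 comparisons.

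TALDO1 encodes transaldolase, which moves a dihydroxyacetone unit between sugar phosphates and links the pathway to glycolysis. The gene (Entrez ID 6888) lies on chromosome 11 of GRCh37 from 747415 to 765012, on the forward strand. With sgCtrl under siNC its levels were 205, 235, 218 and 212 CPM. They were 646, 500, 540 and 537 CPM with sgKeap1-1 and 602, 641, 635 and 566 CPM with sgKeap1-2. Every library with a KEAP1 guide lay above every control, the lowest of them 2.13 times the highest control. The log2 fold changes were 1.35 (adjusted p = 4.88e-10 at an SE of 0.10) and 1.49 (adjusted p = 4.67e-11 at an SE of 0.10), the largest of the 8 tested genes with either guide. Under sitfeb/sitfe3, sgCtrl libraries read 236, 187, 220 and 266 CPM. The sgKeap1-1 libraries read 517, 468, 493 and 521 CPM and the sgKeap1-2 libraries 513, 598, 623 and 627 CPM. All 8 were above the controls, at log2 fold changes of 1.15 and 1.39 (adjusted p = 1.6e-08 and 2.18e-10).

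TKT encodes transketolase, which moves a ketol unit between sugar phosphates. The gene (Entrez ID 7086) lies on chromosome 3 of GRCh37 from 53258728 to 53290068, on the reverse strand. Its levels varied more within a group than those of PGD or TALDO1. Under siNC they were 218, 306, 268 and 272 CPM with sgCtrl, 674, 474, 477 and 312 CPM with sgKeap1-1, and 544, 547, 383 and 355 CPM with sgKeap1-2. The lowest sgKeap1-1 library was only 1.02 times the highest control, so the ranges were separate by a narrow gap. The log2 fold changes were 0.82 (adjusted p = 0.00655 at an SE of 0.20) and 0.76 (adjusted p = 0.00972 at an SE of 0.20).

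Under sitfeb/sitfe3, TKT read 236, 255, 240 and 359 CPM with sgCtrl. It read 449, 426, 331 and 482 CPM with sgKeap1-1 and 663, 433, 393 and 420 CPM with sgKeap1-2. One control library thus lay inside the sgKeap1-1 range, and 3 of the 4 sgKeap1-1 libraries were above every control. The log2 fold change with sgKeap1-1 was 0.64 (adjusted p = 0.0384 at an SE of 0.20), and with sgKeap1-2 it was 0.79 (adjusted p = 0.00487 at an SE of 0.20). The sgKeap1-1 call was lost in 6 of 32 alternatives, whose adjusted p ranged from 0.00278 to 0.119. The libraries whose removal ended it were, under sitfeb/sitfe3, sgCtrl replicates 1, 2 and 3 (adjusted p = 0.104, 0.0925 and 0.119) and sgKeap1-1 replicates 1, 2 and 4 (0.0825, 0.0856 and 0.118). The 2 libraries that stood apart held the highest TKT levels of their groups, 674 and 663 CPM. Without them TKT changed by 0.65 with sgKeap1-1 under siNC (adjusted p = 0.00905) and by 0.63 with sgKeap1-2 under sitfeb/sitfe3 (adjusted p = 0.00669).

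**Figure D2:**
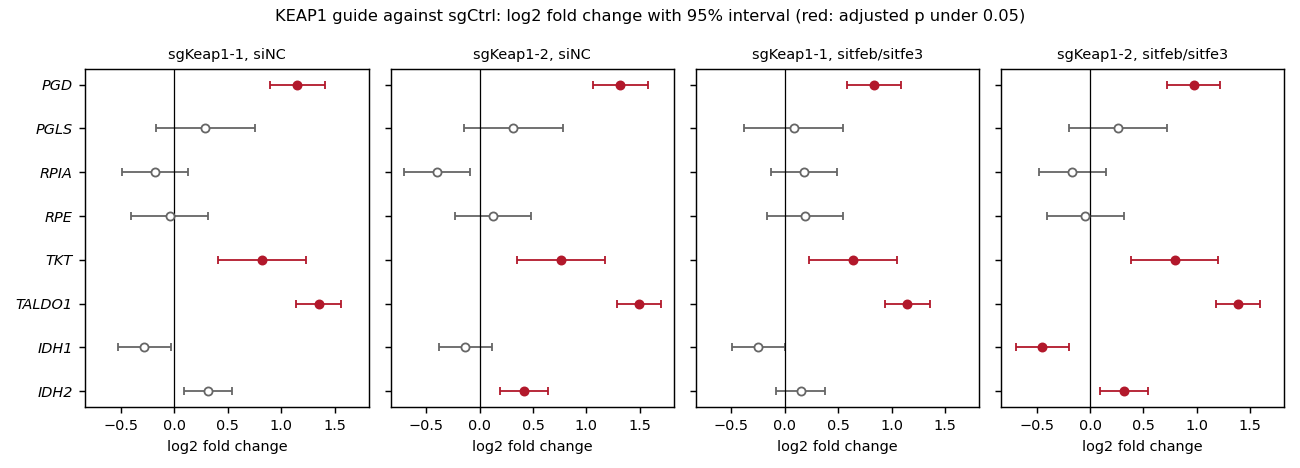
Log2 fold change (horizontal axis) of the 8 tested genes (vertical axis) for each KEAP1 guide against sgCtrl under siNC (left pair) and under sitfeb/sitfe3 (right pair). Points are limma-voom estimates with 95% intervals, filled red where the adjusted p was under 0.05, and PGD, TKT and TALDO1 stand right of 0 in all 4 panels while PGLS and RPE cross 0 in all 4.

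RPIA, RPE and PGLS did not share this change. PGLS encodes 6-phosphogluconolactonase, the enzyme before PGD in the oxidative branch. PGLS (Entrez ID 25796, chromosome 19 of GRCh37, 17622445 to 17632097, forward strand) was a low gene at 15.99, 17.7, 22.4 and 22.6 CPM with sgCtrl under siNC. With sgKeap1-1 it read 21.2, 23.9, 23.6 and 26.7 CPM, and with sgKeap1-2 it read 26.0, 18.8, 22.8 and 30.4 CPM. The groups overlapped and the log2 fold changes were 0.29 (95% interval -0.18 to 0.76) and 0.32 (-0.15 to 0.78). Neither passed the test (adjusted p = 0.484 and 0.408), which does not show that PGLS was level. Under sitfeb/sitfe3 the log2 fold changes were 0.08 and 0.26 (adjusted p = 0.891 and 0.453), and the second was 0.46 (adjusted p = 0.0962) without the libraries that stood apart.

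RPIA encodes the isomerase that makes ribose 5-phosphate, the precursor of nucleotides, and RPE encodes the epimerase that makes xylulose 5-phosphate, a substrate of transketolase. RPIA (Entrez ID 22934, chromosome 2 of GRCh37, 88991191 to 89050446, forward strand) read 68.3, 67.0, 66.3 and 59.6 CPM with sgCtrl under siNC. It read 55.4, 59.4, 55.0 and 59.7 CPM with sgKeap1-1 and 59.0, 36.3, 44.5 and 62.1 CPM with sgKeap1-2. In each guide group 3 of 4 libraries were below every control. The log2 fold changes were -0.18 (adjusted p = 0.509) and -0.40 (adjusted p = 0.0802 at an SE of 0.15), so neither passed the test. The sgKeap1-2 difference passed in 4 of 32 alternatives, whose adjusted p ranged from 0.0318 to 0.336. It was -0.39 (adjusted p = 0.0318) without the 2 libraries that stood apart, -0.39 (0.0323) with sample quality weights, -0.39 (0.0402) without sgKeap1-2 replicate 1 under sitfeb/sitfe3 and -0.51 (0.0343) without sgKeap1-2 replicate 4 under siNC. Under sitfeb/sitfe3, RPIA changed by 0.18 with sgKeap1-1 and by -0.17 with sgKeap1-2 (adjusted p = 0.537 and 0.496), the latter being -0.02 (adjusted p = 0.93) without the libraries that stood apart.

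RPE (Entrez ID 6120, chromosome 2 of GRCh37, 210867289 to 210886984, forward strand) stayed within a narrow range in most libraries. Under siNC it read 48.7, 54.6, 56.5 and 53.5 CPM with sgCtrl, 35.5, 56.7, 59.0 and 59.7 CPM with sgKeap1-1, and 55.6, 58.1, 61.6 and 56.8 CPM with sgKeap1-2. The log2 fold changes were -0.04 (95% interval -0.40 to 0.31) and 0.13 (-0.23 to 0.48). Its 2 lowest values, 35.5 and 29.7 CPM, were in the 2 libraries that stood apart. Without those libraries the sgKeap1-1 difference under siNC was 0.14 (adjusted p = 0.493), against adjusted p of 0.493 to 0.99 over all alternatives. Under sitfeb/sitfe3, RPE differed by 0.19 with sgKeap1-1 and by -0.04 with sgKeap1-2 (adjusted p = 0.598 and 0.904), and the second was 0.15 (adjusted p = 0.391) without those libraries. The annotation names 6 RPE pseudogenes, none of them in the table, and reads that fit such copies could be lost or split by the counting.

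The dehydrogenases outside the pathway moved less, and not together. IDH2 (Entrez ID 3418, chromosome 15 of GRCh37, 90626277 to 90645709, reverse strand) read 95.4, 97.9, 108 and 119 CPM with sgCtrl under siNC. It read 151, 116, 129 and 127 CPM with sgKeap1-1 and 135, 121, 166 and 140 CPM with sgKeap1-2. The sgKeap1-2 libraries were all above the controls, the lowest by a factor of 1.02, and 3 of 4 sgKeap1-1 libraries were. The log2 fold change was 0.42 with sgKeap1-2 (adjusted p = 0.00985 at an SE of 0.11) and 0.31 with sgKeap1-1 (adjusted p = 0.0687 at an SE of 0.11). Without sgKeap1-2 replicate 3 under siNC, the highest library, the first of these was 0.34 (adjusted p = 0.0596), and over its 32 alternatives the adjusted p ranged from 0.00203 to 0.0596. The sgKeap1-1 difference passed in 3 of 32 alternatives (adjusted p 0.0438 to 0.187), which were DESeq2 (0.32, adjusted p = 0.049) and the fits without sgKeap1-1 replicate 2 (0.38, 0.0467) or sgCtrl replicate 4 (0.38, 0.0438) under siNC.

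Under sitfeb/sitfe3, IDH2 read 93.9, 107, 109 and 114 CPM with sgCtrl, 130, 119, 120 and 103 CPM with sgKeap1-1 and 125, 143, 128 and 134 CPM with sgKeap1-2. All sgKeap1-2 libraries were again above the controls, and the log2 fold change was 0.32 (adjusted p = 0.0382 at an SE of 0.11). That call rested on the whole set of libraries, since it was lost in 17 of 32 alternatives, with an adjusted p from 0.0173 to 0.129. It was lost with the compared groups alone (0.30, adjusted p = 0.102) and without any 1 library other than replicates 1 and 4 of sgCtrl, replicate 1 of sgKeap1-1 and replicates 2, 3 and 4 of sgKeap1-2 under siNC, and sgCtrl replicate 4 and sgKeap1-2 replicate 1 under sitfeb/sitfe3. With sgKeap1-1 the difference was 0.15 (adjusted p = 0.486).

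IDH1 encodes the cytosolic and peroxisomal NADP-dependent isocitrate dehydrogenase. The gene (Entrez ID 3417) lies on chromosome 2 of GRCh37 from 209100953 to 209130798, on the reverse strand. Under siNC it read 450, 533, 613 and 558 CPM with sgCtrl, 339, 468, 459 and 513 CPM with sgKeap1-1, and 534, 419, 494 and 513 CPM with sgKeap1-2. These ranges overlapped, with log2 fold changes of -0.28 (adjusted p = 0.152 at an SE of 0.12) and -0.13 (adjusted p = 0.545 at an SE of 0.12). Without the libraries that stood apart the first was -0.15 (adjusted p = 0.382). Under sitfeb/sitfe3 it read 554, 590, 616 and 514 CPM with sgCtrl, 498, 465, 526 and 426 CPM with sgKeap1-1, and 369, 388, 496 and 421 CPM with sgKeap1-2. All 4 sgKeap1-2 libraries were below every control, and IDH1 fell by 0.45 on the log2 scale (adjusted p = 0.00919 at an SE of 0.12), a call kept in all 32 alternatives (adjusted p 0.00227 to 0.0355). With sgKeap1-1 the difference of -0.25 did not pass (adjusted p = 0.224). It passed in 1 of 32 alternatives, with sample quality weights (-0.28, adjusted p = 0.0383), and over all of them the adjusted p ranged from 0.0383 to 0.478. The guides themselves differed under sitfeb/sitfe3 by -0.195 (limma-voom adjusted p = 0.717). The sgKeap1-2 effect differed between sitfeb/sitfe3 and siNC by -0.313 (95% interval -0.665 to 0.04, limma-voom adjusted p = 0.991). Neither was called, so a fall particular to sgKeap1-2 under knockdown is not shown.

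The annotation places an exon of another gene on the opposite strand over exon bases of PGLS (PGLS-DT), RPE (KANSL1L) and IDH1 (IDH1-AS1). These partners are counted as genes of their own in the table. The strand setting of the counting is not given in the sources used here. Whether reads on the shared bases went to the right gene is therefore not known.

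ME1 encodes cytosolic malic enzyme, which makes NADPH from malate. The gene (Entrez ID 4199) lies on chromosome 6 of GRCh37 from 83920121 to 84140770, on the reverse strand. It was at the edge of detection, with 16 reads in all and 0 reads in 20 of the 24 libraries. The reads were 1 in sgCtrl replicate 2 under siNC, 2 and 3 in sgCtrl replicates 1 and 4 under sitfeb/sitfe3, and 10 in sgKeap1-2 replicate 2 under sitfeb/sitfe3. A count of 0 allows up to 3 reads, or 0.664 to 0.928 CPM at the depth of these libraries, and covers counting error only. No library with a KEAP1 guide under siNC held a read of ME1, so a change with KEAP1 could not be measured, and no fold change is given.

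The sequence around the start of the genes was read from RefSeq promoters (GRCh38.p14), taken as 250 bases before to 50 after each transcription start, for the 3 genes that rose with both guides and for ME1, which was near 0. All 9 genes matched the table, with 2 starts for IDH1 and 1 for each other gene. Capitals mark matches on either strand to TGACNNNGC, the core letters of the antioxidant response element that NRF2 binds, and sequences run 5′ to 3′ on the strand of the gene.
PGD (chr1:10398814-10399113, forward): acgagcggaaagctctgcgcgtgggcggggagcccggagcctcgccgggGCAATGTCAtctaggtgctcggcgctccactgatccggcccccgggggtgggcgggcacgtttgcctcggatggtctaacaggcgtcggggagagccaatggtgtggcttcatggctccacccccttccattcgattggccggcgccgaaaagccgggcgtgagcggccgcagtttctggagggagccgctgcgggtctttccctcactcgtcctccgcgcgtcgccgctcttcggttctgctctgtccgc
TKT (chr3:53255973-53256272, reverse): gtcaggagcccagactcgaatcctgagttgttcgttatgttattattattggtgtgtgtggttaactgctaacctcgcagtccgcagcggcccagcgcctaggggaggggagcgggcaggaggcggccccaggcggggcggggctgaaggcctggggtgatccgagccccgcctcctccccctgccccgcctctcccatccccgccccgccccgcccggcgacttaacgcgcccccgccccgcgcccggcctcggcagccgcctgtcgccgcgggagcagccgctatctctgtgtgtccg
TALDO1 (chr11:747214-747513, forward): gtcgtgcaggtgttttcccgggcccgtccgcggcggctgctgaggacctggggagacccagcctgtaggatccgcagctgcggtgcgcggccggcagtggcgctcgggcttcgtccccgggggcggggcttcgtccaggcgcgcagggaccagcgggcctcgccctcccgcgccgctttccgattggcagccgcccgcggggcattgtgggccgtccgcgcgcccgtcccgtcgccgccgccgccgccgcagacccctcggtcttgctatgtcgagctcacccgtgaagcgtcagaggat
ME1 (chr6:83431002-83431301, reverse): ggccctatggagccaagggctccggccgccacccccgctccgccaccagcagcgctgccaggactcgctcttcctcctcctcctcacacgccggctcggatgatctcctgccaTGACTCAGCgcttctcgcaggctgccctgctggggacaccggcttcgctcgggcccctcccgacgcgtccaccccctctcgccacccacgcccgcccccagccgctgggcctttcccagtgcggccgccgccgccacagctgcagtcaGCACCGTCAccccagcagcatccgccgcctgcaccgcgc

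TGACNNNGC was found in the window of 4 of the 9 genes, PGD, RPE, IDH1 (1 of its 2 starts) and ME1, and in 13.35% of all 35116 promoters of this length. The match in PGD lies on the opposite strand, from base -201 to base -193 counted from the start. ME1 held 2 matches, from -137 to -129 and, on the opposite strand, from 12 to 20. The first of them also holds TGACTCA, letters bound by AP-1 factors, so the match overlaps that motif. Of the genes with a match, PGD was higher with KEAP1 guides, and IDH1 was called lower with sgKeap1-2 under sitfeb/sitfe3 alone. RPE was not called and ME1 was not tested. TKT and TALDO1, both higher with KEAP1 guides, had no match in this window, nor had IDH2, PGLS and RPIA. CACGTG, the core of the element bound by TFEB and TFE3, was found in none of the 10 windows and in 7.26% of all promoters. A match is a description of letters in this window, and sites elsewhere were not searched.

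For knockdown of TFEB and TFE3, limma-voom called none of the 8 tested genes in any guide background, and edgeR and DESeq2 also called 0. A missing call does not show that a gene was level. The knockdown called few genes at all, 0.0179% of those tested with sgCtrl, 0.0897% with sgKeap1-1 and 0.359% with sgKeap1-2. These are 2, 10 and 40 genes, and 4, 30 and 57 genes with the replicate block. At an unadjusted p under 0.05 there was 1 of the 8 genes with sgCtrl, which was PGD, and 0 with either KEAP1 guide. PGD was higher under sitfeb/sitfe3 with sgCtrl by 0.38 (SE 0.13, adjusted p = 0.913), and 3 of 4 knockdown libraries were above every siNC library. With sgKeap1-1 and sgKeap1-2 its differences were 0.06 (95% interval -0.18 to 0.31) and 0.03 (-0.21 to 0.27). For TALDO1 the 3 differences were 0.06, -0.15 and -0.05, with intervals that together span -0.35 to 0.27. TKT differed by 0.02, -0.16 and 0.06, within a wider -0.56 to 0.46, and with sgKeap1-1 and sgKeap1-2 it differed by 0.02 and -0.10 without the libraries that stood apart.

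The KEAP1 effect was then compared between siRNA conditions as an interaction, the log2 fold change under sitfeb/sitfe3 minus that under siNC. No gene was called for sgKeap1-1, for sgKeap1-2 or for their mean, neither among the 8 genes nor among all genes tested (0% in each), by limma-voom, edgeR or DESeq2. At an unadjusted p under 0.05, limma-voom gave 304, 454 and 348 genes of 11152. PGD had the only unadjusted p under 0.05 among the 8 genes, with a mean interaction of -0.33 (95% interval -0.65 to -0.02, adjusted p = 0.999). That value holds the higher sgCtrl level under knockdown given above, since it uses the same libraries. The mean interaction was -0.16 for TALDO1 (95% interval -0.41 to 0.10) and -0.08 for TKT (-0.58 to 0.43). For TKT this interval holds both a weaker and a stronger KEAP1 effect under knockdown, so neither a kept nor a changed size is shown. TKT was still called higher under sitfeb/sitfe3, by 0.64 with sgKeap1-1 and by 0.79 with sgKeap1-2. The first of these calls was lost in 6 of 32 alternatives.

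**Figure D3:**
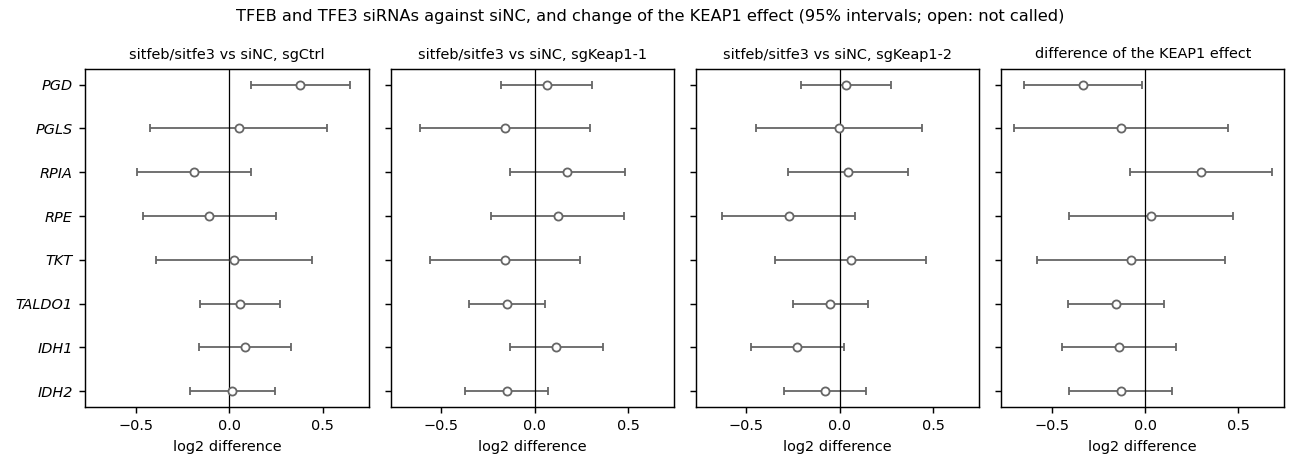
Log2 difference (horizontal axis) of the 8 tested genes (vertical axis) between sitfeb/sitfe3 and siNC with each guide, and, in the right panel, the change of the mean KEAP1 effect under knockdown. Points are limma-voom estimates with 95% intervals and all are open because none was called, and the interval of PGD lies off 0 in the left panel (0.11 to 0.65) and in the right panel (-0.65 to -0.02).

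The guides were also set against each other, since they target the same gene. Under siNC no gene of the table differed by limma-voom (0%, with 598 genes at an unadjusted p under 0.05), where edgeR called 2 and DESeq2 called 11. Under sitfeb/sitfe3, 0.00897% of genes were called and none of the 8, which is 1 gene, or 11 with the replicate block. TALDO1 was higher with sgKeap1-2 by 0.14 under siNC and by 0.24 under sitfeb/sitfe3 (95% interval 0.04 to 0.44, adjusted p = 0.593). RPIA was lower with sgKeap1-2 under sitfeb/sitfe3 by -0.35 (adjusted p = 0.612), with 3 of 4 sgKeap1-2 libraries below every sgKeap1-1 library. For PGD the difference of the guides was 0.17 (-0.07 to 0.41) and 0.13 (-0.11 to 0.38), and for IDH2 it was 0.10 (-0.12 to 0.32) and 0.17 (-0.05 to 0.40).

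Ordered by mean level, the 6 groups fell into separate steps for 2 genes. For PGD, sgCtrl stood at 74.5 ± 8.72 CPM under siNC and 98.4 ± 21.1 CPM under sitfeb/sitfe3 (SD, n = 4 each), and these neighbours overlapped. A gap followed to sgKeap1-1 at 165 ± 8.24 CPM under siNC, and the 4 KEAP1 groups, up to 191 ± 25.5 CPM for sgKeap1-2 under sitfeb/sitfe3, overlapped from neighbour to neighbour. TALDO1 showed the same single gap, between 227 ± 33.0 CPM for sgCtrl and 500 ± 24.6 CPM for sgKeap1-1, both under sitfeb/sitfe3, and its highest group was sgKeap1-2 under siNC at 611 ± 34.7 CPM. For TKT, which ran from 266 ± 36.1 CPM to 484 ± 148 CPM, and for PGLS, RPIA, RPE, IDH1 and IDH2, every neighbour in the order overlapped the next.

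Across the 24 libraries, log2 CPM of PGD and TALDO1 correlated with a Pearson's r of 0.94, and of TKT with PGD and TALDO1 with 0.78 and 0.81. Around the group means these values were 0.37, 0.26 and 0.29, so most of the likeness lay between groups. TKT and IDH1 ran opposite, with r = -0.75 over all libraries and -0.59 around the group means, and the 2 libraries that stood apart are high in one and low in the other. These are descriptions over libraries that share guides and library preparation. Among 10532 other genes averaging 10 or more reads a library, the profiles most like PGD were KILH (r = 0.97), MAP2 (0.96), SEL1L3 (0.96), PTGR1 (0.96) and ABCC3 (0.96). Those most like TALDO1 were TUSC3, OSGIN1 and LUCAT1 (0.98 each), and those most like TKT were PRDX1 (0.90), ETFB (0.90) and FAM210B (0.88). ME1 was below the count minimum and has no such profile.

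The neighbouring pathways were read from gene lists, given by counts and medians. Beside each list count under siNC stand the shares over all genes tested. These were 6.01% higher and 4.92% lower with sgKeap1-1, and 7.58% higher and 7.14% lower with sgKeap1-2. SHPK, MTHFD1 and SLC25A10 are named because few genes were called, after their values were seen. Of 8 tested genes of ribose and pentose handling beyond the 9, none rose and RGN fell with both guides under siNC, by 0.52 (adjusted p = 0.0208) and 0.60 (adjusted p = 0.00592) on the log2 scale. RGN encodes regucalcin, a calcium-binding protein with gluconolactonase activity. SHPK, the sedoheptulose kinase, was the other call, lower with sgKeap1-2. The medians of this list were -0.31 and -0.24, against -0.02 and 0.00 over all genes.

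Among 11 tested genes of other NADPH-supplying enzymes and NAD kinases, 1 rose and 2 fell with sgKeap1-1 under siNC, and 1 rose and 3 fell with sgKeap1-2. ALDH1L1, the cytosolic formyltetrahydrofolate dehydrogenase that makes NADPH from a folate, rose from 17.4 ± 3.79 CPM to 58.5 ± 7.95 and 73.4 ± 5.23 CPM (SD, n = 4), with log2 fold changes of 1.76 and 2.08 (adjusted p = 3.19e-07 and 5.97e-09). NADK2, the mitochondrial NAD kinase, fell by 0.70 and 0.73 (adjusted p = 0.000258 and 0.000107). GLUD1, mitochondrial glutamate dehydrogenase, fell by 0.77 and 0.64 (adjusted p = 0.00014 and 0.000743), with the reservation that near-identical copies of this gene could share its reads. Under knockdown, the only call in this list was a lower MTHFD1 with sgKeap1-2. Around IDH1, IDH2 and ME1, 14 genes of citrate and malate exchange were tested. SLC25A10, the mitochondrial dicarboxylate carrier, was lower with sgKeap1-2 under siNC (-0.51, adjusted p = 0.0442), and its difference with sgKeap1-1 was -0.02 (adjusted p = 0.963). The medians of this list were -0.02 and -0.14.

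Glycolysis, which shares intermediates with TKT and TALDO1, held calls in the higher direction alone. Of 20 tested genes, 7 rose with sgKeap1-1 and 10 with sgKeap1-2 under siNC, and none fell. Over all genes tested, 6.01% and 7.58% were called higher and 4.92% and 7.14% lower. The list medians were 0.32 and 0.44, against -0.02 and 0.00 over all genes. PFKP, the platelet-type phosphofructokinase, rose by 2.18 and 2.22 (adjusted p = 0.000152 and 8.21e-05) from a low 3.66 ± 0.806 CPM. HK1 (2.34 and 1.98) was lower still with sgCtrl, at 1.74 ± 1.54 CPM, so its fold change is loosely set. PKM, the abundant pyruvate kinase of proliferating cells, rose by 0.75 and 0.62 (adjusted p = 0.00405 and 0.0138), and ENO2 by 0.88 and 1.03. Under sitfeb/sitfe3, 6 and 8 of the 20 genes rose and ENO2 was not called (0.04 and 0.33).

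Among these lists, the largest changes were in enzymes that use NADPH. Of 16 tested NADPH-using enzymes, 10 rose with each guide under siNC, and 3 and 4 fell. The shares over all genes were 6.01% and 7.58% higher, and 4.92% and 7.14% lower. AKR1B10, an aldo-keto reductase, rose by 3.62 and 4.30 (adjusted p = 3.48e-08 and 8.46e-10), and AKR1C2 and AKR1C1 by 2.98 and 3.27 and by 1.90 and 2.30. Reads of these AKR1C paralogs, which are near-identical, may be split or shared by the counting. TXNRD1, cytosolic thioredoxin reductase, rose by 2.04 and 2.43 (adjusted p = 2.22e-07 and 4.33e-09). Those that fell with both guides, named after their values were seen, included SQLE, the squalene epoxidase of sterol synthesis (-0.77 and -0.80), and POR, the electron donor of cytochromes P450 (-0.47 and -0.58).

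**Figure D4:**
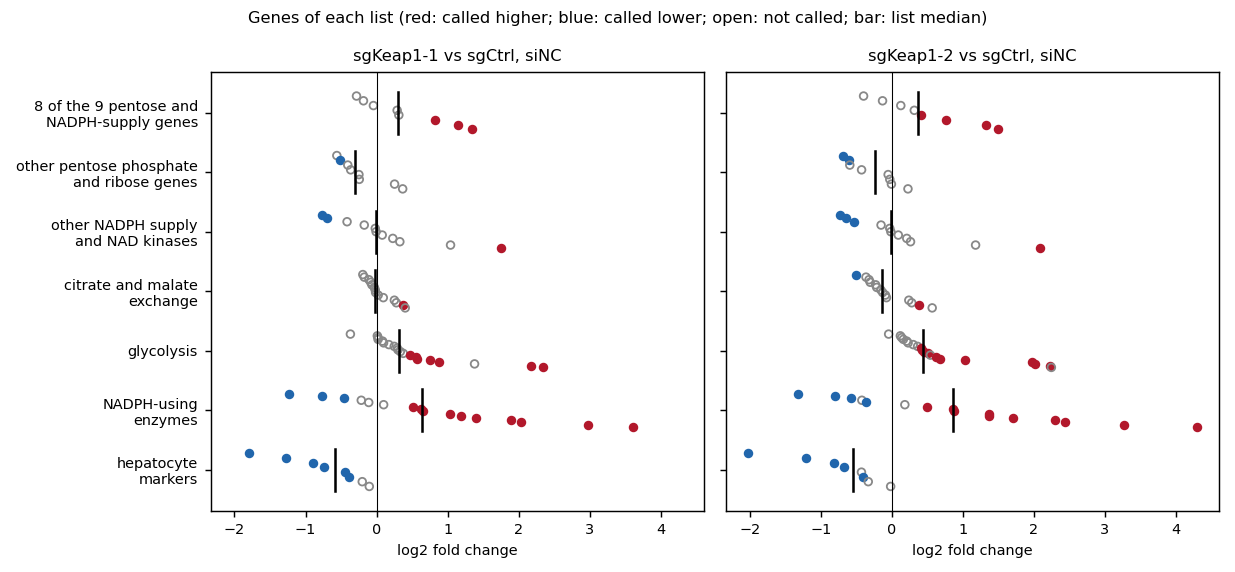
Log2 fold change (horizontal axis) of each tested gene in 7 lists (rows) with sgKeap1-1 (left) and sgKeap1-2 (right) against sgCtrl under siNC, with genes called higher in red, called lower in blue, open circles not called and black bars for the list medians. Glycolysis has 7 and 10 red and no blue points, the NADPH-using enzymes reach 3.62 and 4.30, and hepatocyte markers hold no red point.

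HepG2 cells held all 8 hepatocyte markers tested (ALB, AFP, APOA1, APOB, HNF4A, FGB, TF and AMBP), and these moved with the KEAP1 guides too. Of the 8, 6 fell with sgKeap1-1 and 5 with sgKeap1-2 under siNC, and 0 rose. ALB fell by 1.28 and 1.21 on the log2 scale, and AFP by 1.80 and 2.02. The summed marker level ran from 26160 to 35000 CPM with sgCtrl under siNC, from 16730 to 17970 CPM with sgKeap1-1 and from 15840 to 16740 CPM with sgKeap1-2. Under sitfeb/sitfe3 it ran from 24050 to 32960, 17120 to 18020 and 13870 to 20000 CPM. Of 8 markers of blood, endothelial and fibroblast cells, CD14 was the only one in the table, at 0.535 to 6.09 CPM, and it was called in no comparison. The part of the lower hepatocyte markers in the changes of PGD, TKT and TALDO1 was not tested. In bulk RNA, fewer cells of a state and less RNA per cell cannot be told apart.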

How the data were processed

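RNA of 24 HepG2 libraries (QuantSeq 3′ kit, single-end) was counted per gene by the authors, and the deposited values are raw read counts. The submitters' processing notes name FastQC 0.72, cutadapt 1.16, STAR 2.7.5b, featureCounts 1.6.3 and limma 3.40.6. They name hg38, where the study's methods name hg19, so the build of the counts is uncertain, and gene positions given here are from GRCh37 annotation. Of 13446 rows, 1414 had no gene ID (1.35 to 2.57% of reads) and were left out of library sizes and tests. Rows sharing an ID were summed, 43 rows into 20 IDs, and 160 IDs with counts identical to another ID were merged, leaving 11927 features. Counts filtered by edgeR's filterByExpr were TMM-scaled and fitted with limma-voom (R 4.3.3, limma 3.58.1, edgeR 4.0.16) as 6 group means. Tests were two-sided, with Benjamini-Hochberg adjustment over 11152 genes and a threshold of 0.05. Levels are printed as CPM on effective (TMM) library sizes. The code was tested on simulated data. Alternatives were edgeR's quasi-likelihood test, DESeq2 1.42.0, DESeq2-type (RLE) scaling, no filter, a replicate block (replicate number as a term), only the compared groups, quality weights, the data without 2 libraries and without each library. The genes named are the 9 members, up to 4 genes of each list called in the same direction with both guides under siNC (ranked by the smaller fold change), the 5 genes most correlated with PGD and 3 each for TKT and TALDO1, and the targets. Replicate numbers match a day-like prefix in the sample descriptions. Same-numbered libraries correlated, around group means, between -0.163 and 0.43 (median 0.046 over 60 pairs, 20 of them over 0.1), and 15 of 24 libraries were closest to their own number. The members and lists were chosen with earlier results of these data known. Some list genes that this rule selects are not reported here.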

Additional observations from a re-analysis of the deposited data

Results flagged for a closer look

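Among 52 sets of 4 libraries examined for 1 library far from the rest (a gap beyond Dixon's 95% critical value), 4 were found. Chance gives about 1 in 20 such groups, but this rate does not apply to the 2 found for ME1, where 3 libraries at 0 and 1 with reads give the largest possible gap by construction. The 52 also include a set of ME1 with 0 reads in all 4 libraries, in which no such gap can arise. PGD was at 152.7 CPM in sgKeap1-2 replicate 4 under sitfeb/sitfe3, below the other libraries at 201 to 207 CPM, and still above every sgCtrl library. RPE was at 35.51 CPM in sgKeap1-1 replicate 1 under siNC, below the others at 56.7 to 59.7 CPM, and this is 1 of the 2 libraries that stood apart as a whole. ME1 was at 0.2492 CPM in sgCtrl replicate 2 under siNC, which is 1 read, with 0 in the other libraries of the group. ME1 was also at 2.458 CPM in sgKeap1-2 replicate 2 under sitfeb/sitfe3, which is 10 reads, again with 0 in the others. The causes were not tested.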

How the results depend on the processing

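PGD and TALDO1 were called higher in all 32 alternatives of each KEAP1 comparison, and TKT in all but 6 of those for sgKeap1-1 under sitfeb/sitfe3. With the replicate block, the 4 KEAP1 comparisons called 3, 4, 3 and 5 of the 8 genes, as without it, and the block changed no other call of a member. Without 1 library at a time, the member counts ran from 3 to 4, 3 to 5, 2 to 3 and 4 to 5, and stayed at 0 in the siRNA, guide and interaction comparisons. By edgeR, the lower count under knockdown was 0 in place of 1 for the other NADPH-supplying enzymes with sgKeap1-2, 1 in place of 0 for citrate and malate exchange with sgKeap1-1, and 2 in place of 1 for the targets with sgCtrl. Calls over all genes moved by more than 1.5 times in these cases. With sgKeap1-1 under siNC they went from 1219 to 766 with only the compared groups, and under sitfeb/sitfe3 from 1169 to 1923 with quality weights. Under knockdown with sgCtrl, 2 became 7 by DESeq2 and with quality weights, 4 with the replicate block and without the 2 libraries, and 1 to 2 without 1 library at a time. With sgKeap1-1, 10 became 52 by DESeq2, 50 with quality weights, 30 with the block, 23 without the 2 libraries, 1 with only the compared groups, and 3 to 18 without 1 library. With sgKeap1-2, 40 became 97 by DESeq2, 101 with quality weights, 69 without the 2 libraries, 11 with only the compared groups, and 12 to 61 without 1 library. Between guides under sitfeb/sitfe3, 1 became 19 by DESeq2, 11 with the block, 4 with quality weights and without the 2 libraries, 3 by edgeR, 0 with only the compared groups, and 0 to 3 without 1 library. Under siNC, 0 became 11 by DESeq2, 3 with quality weights, 2 by edgeR and with the block, and 0 to 3 without 1 library. The causes were not tested. Depth limits ME1, which had 16 reads in all.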
